A study of Mus musculus with 4 samples.

Results

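The 10 genes described here encode enzymes, ion transporters, vesicle proteins and a surface receptor that osteoclasts use to acidify and dissolve bone: Acp5, Ctsk, Car2, Clcn7, Ostm1, Slc4a2, Snx10, Plekhm1, Slc9b2 and Siglec15. They were taken by symbol from a table of 12799 genes, subunits of the proton pump and metalloproteinases being left aside, and all 10 had a row and passed the filter on low values. Poly(A) RNA had been sequenced from bone marrow monocytes of 12-week-old female mice that were grown in M-CSF at 30 ng/mL. RANKL at 50 ng/mL, the cytokine that drives osteoclast formation, was then added to the M-CSF for 3 days, an early stage of differentiation. Controls were Piezo1fl/fl (n = 2), with both alleles of this stretch-gated cation channel floxed and intact, and knockouts were Csf1r-iCre;Piezo1fl/fl (n = 2), with the same floxed alleles and a Cre driven from the Csf1r promoter of the monocyte lineage. The controls carried no Cre, so an effect of the transgene and one of Piezo1 loss cannot be told apart. According to the design text the libraries of a genotype are biological replicates. All 4 share 1 batch value, and the labels do not say whether animals were pooled.

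An osteoclast attaches to bone, seals off a space beneath itself and inserts lysosomal membrane into the surface facing that space, which becomes the ruffled border. Protons come from carbonic acid made in the cytosol, chloride follows them through a chloride-proton exchanger, and the bicarbonate left behind leaves the cell in exchange for chloride on the opposite side. The acid dissolves mineral, and cathepsin K and other secreted lysosomal enzymes digest the exposed collagen. Inherited loss of CLCN7, OSTM1, SNX10, PLEKHM1 or CA2 in humans causes osteopetrosis, in which bone is made but not resorbed.

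Levels are in CPM, the gene's reads scaled to a fixed library size with a correction for composition, and the libraries held 14122118 to 18897927 gene reads. Piezo1, the targeted gene, was at 430.1 and 384 CPM in the controls and at 60.98 and 56.2 CPM in the knockouts, so both knockout libraries matched their label (limma log2 fold change -2.79, adjusted p = 8.23e-05). A transcript listed as Tdtomato, which no label mentions, was at 0.52 and 6.02 CPM in the controls and at 270.4 and 870.4 CPM in the knockouts. Tdtomato thus differed between the genotypes, so an effect tied to it and one of Piezo1 loss cannot be told apart. All 9 osteoclast markers examined, among them Nfatc1, Itgb3, Calcr and Mmp9, were measured and passed the filter. Of 10 monocyte and macrophage markers, 9 did. Of the other cell types, B cells had 1 marker of 8 above the filter, T and NK cells 2 of 10, endothelial cells 2 of 6 and mast cells and basophils 0 of 6, while dendritic cells had 2 of 7, neutrophils 7 of 10 and stromal cells, fibroblasts and osteoblasts 16 of 18. The neutrophil markers summed to between 47.8 and 88.0 CPM per library, and the stromal ones to between 1386 and 2657 CPM. Mitochondrial transcripts took 3.13% and 2.27% of the signal in controls 1 and 2, and 1.38% and 2.74% in knockouts 1 and 2.

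Sequences before the start sites of 8 of the 10 genes were taken from RefSeq (GRCm38.p6), and those of Car2 and Siglec15 are not reported here. Ctsk and Acp5 are shown as the members with the highest levels, and Clcn7 as a member whose level was far lower and varied less between the knockout libraries. All 3 are known targets of the MITF and TFE family of transcription factors. The windows were chosen after the matches had been seen. The windows run 5′ to 3′ on the strand of the gene and hold no annotated exon bases: chr9:22130609-22130848 on the minus strand for the third of 3 Acp5 starts, chr17:25133141-25133390 on the plus strand for the first of 2 Clcn7 starts, and chr3:95498960-95499209 on the plus strand for Ctsk. The last 10 bases before the Acp5 start lie in an annotated exon and are not shown. Capitals mark CACGTG and TCATGTG, letters that this family binds, on either strand, so that TCATGTG also appears as CACATGA.
Acp5: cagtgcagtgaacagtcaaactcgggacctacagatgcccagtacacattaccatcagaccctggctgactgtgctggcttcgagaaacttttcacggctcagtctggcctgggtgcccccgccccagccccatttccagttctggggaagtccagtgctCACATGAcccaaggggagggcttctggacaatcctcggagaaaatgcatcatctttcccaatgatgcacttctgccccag
Clcn7: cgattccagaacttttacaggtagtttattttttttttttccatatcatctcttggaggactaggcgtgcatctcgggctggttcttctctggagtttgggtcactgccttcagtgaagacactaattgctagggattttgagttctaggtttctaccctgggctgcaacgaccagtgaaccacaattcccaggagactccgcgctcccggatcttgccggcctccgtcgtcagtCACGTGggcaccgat
Ctsk: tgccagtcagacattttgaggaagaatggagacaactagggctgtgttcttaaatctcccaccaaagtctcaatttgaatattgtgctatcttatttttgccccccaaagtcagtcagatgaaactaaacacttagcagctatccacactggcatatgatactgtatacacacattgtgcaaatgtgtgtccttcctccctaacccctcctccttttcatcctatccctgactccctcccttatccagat

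In the 250 bases before a start, CACGTG was found in 1 of the 8 genes, Clcn7, at bases -15 to -10, against 6.02% of 32817 promoters of the same length. TCATGTG was found in 2 of the 8, Acp5 at bases -90 to -84 and a second Clcn7 start, against 3.25% of all promoters. TGANTCA, the letters bound by AP-1, was found in Snx10 alone of the 8 genes, against 6.75% of promoters, and TATAAA in 0, against 12.4%. The Snx10 match lies within annotated exon bases, which make up 134 of the 250 bases of that window. GGAAA, the core shared by NFAT and other factors, was found in 5 of the 8 and in 55.6% of all promoters. Both strands were searched, matches to different motifs did not overlap, and a gene with several starts had several chances to hold a match. A window without a match, such as that of Ctsk, shows only that these letters are not in it.

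The 10 genes spanned a wide range of abundance, with the 2 secreted enzymes far above the rest. Levels between genes were compared per kb of merged exon length from the GENCODE annotation, and means are over all 4 libraries. Ctsk stood first at 16058 CPM per kb (range 15251 to 17629), and Acp5 followed at 4975 CPM per kb (4430.2 to 6037), 3.23-fold below it. The next gene, Snx10, was at 164 CPM per kb, 30.3-fold below Acp5. Snx10, Clcn7 (163 CPM per kb), Siglec15 (147), Slc9b2 (139.9) and Slc4a2 (128) formed a chain in which the ranges of neighbours over the 4 libraries overlapped. Car2 (81.9) and Plekhm1 (80.7) overlapped each other, and Ostm1 came last at 39.0 CPM per kb (37.5 to 42.3).

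That order and the gaps in it depend on the length used. With the median length of the protein-coding transcripts of each gene, a choice added after the data were seen, Ctsk, Acp5 and Snx10 kept the first 3 places, but Acp5 stood at 7340.0 CPM per kb, 2.19-fold below Ctsk, and Snx10 at 621 CPM per kb, 11.8-fold below Acp5. The range of Snx10 no longer met that of the next gene. Slc4a2 (255 CPM per kb) and Clcn7 (211) then followed, Ostm1 moved to place 7 at 149 CPM per kb, and Plekhm1 was last at 80.7.

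**Figure D1:**
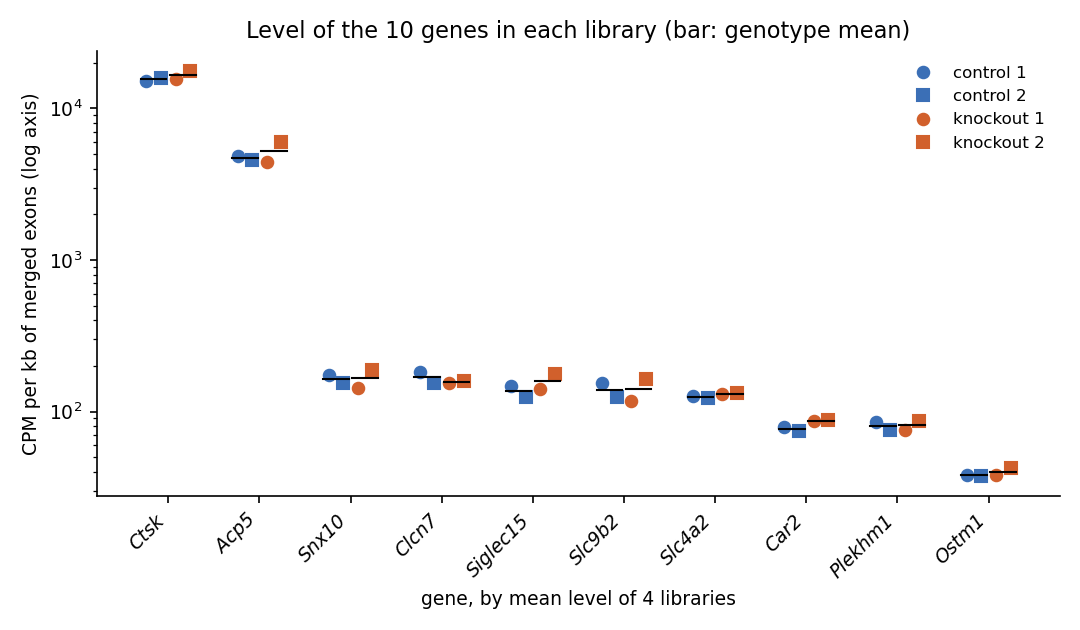
Level of each of the 10 genes in CPM per kb of merged exon length, on a log axis, for 2 control libraries (blue) and 2 knockout libraries (orange), with bars at genotype means. Ctsk and Acp5 lie above 4430.2 CPM per kb in every library, and the other 8 genes lie between 37.5 and 189 CPM per kb.

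Each of the 8 members with relatives in a named family had the highest level per kb of that family in these cultures. Acp5 took 99.5% to 99.6% of the summed level of 5 acid phosphatase genes across the 4 libraries. Siglec15 took 96.3% to 98.1% of 7 Siglec genes, and Slc4a2 92.6% to 94.7% of 7 genes of the bicarbonate transporter family. Clcn7 took 86.8% to 89.9% of 5 genes of the CLC family, Car2 86.4% to 89.0% of 7 carbonic anhydrase genes, and Ctsk 80.5% to 83.3% of 12 cathepsin genes, with Ctsd, an aspartic protease of lysosomes, next. Slc9b2 took 78.2% to 82.6% of 9 sodium-proton exchanger genes. Snx10 was less dominant, at 20.5% to 25.8% of 28 sorting nexin genes and 1.46-fold above Snx3. With the transcript lengths all 8 were still first in their families, and Snx10 took 38.3% to 45.5%, 4.11-fold above Snx3. Clcn7 then took 74.3% to 79.9%, 5.27-fold above Clcn4, against 13.7-fold by merged exons. The share ranges of the other members overlapped those given above. By merged exons the shares of the genotypes overlapped in 6 of these 8 genes. In CPM, the groups did not overlap in 16.5% of all tested genes with the knockouts higher and in 15.4% with them lower. Slc4a2 had shares of 92.6% (control 1), 93.1% (control 2), 93.2% (knockout 1) and 94.7% (knockout 2). Clcn7 had shares of 89.9%, 87.9%, 86.8% and 87.7% in the same order, and neither difference was tested.

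No member passed the test of a difference between genotypes. With limma on log2(CPM + 0.5), 0 of the 10 genes rose and 0 fell at a Benjamini-Hochberg adjusted p under 0.05, where 0.0424% of 11781 tested genes rose and 0.119% fell. Each of the 10 had an adjusted p of 0.9997, and 0 had an unadjusted p under 0.05, against 4.9% of tested genes. edgeR on the recovered reads called 0 members (0.161% of all tested genes) and DESeq2 0 (0.56%), in both cases with 0 at an unadjusted p under 0.05. The median log2 fold change of the members was 0.08, with 8 positive and 2 negative, beside a median of 0.0016 over all tested genes.

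The 2 groups overlapped in 8 of the 10 genes. In Car2 and Slc4a2 both knockout libraries lay above both controls, as in 16.5% of all tested genes, and in 0 members both lay below, as in 15.4% of genes. This count moved with each library left out: in either direction it was 6 when control 1 was dropped (63.5% of tested genes), 4 for control 2 (64.6%), 9 for knockout 1 (67.6%) and 5 for knockout 2 (68.0%). Reads per member and library ran from 2071 to 490353, and counting error was narrow. For Siglec15, the member with the fewest reads, 95% Poisson intervals, which cover counting error only, were 139 to 151 CPM in control 2 and 165 to 178 CPM in control 1. An exact permutation test of 1 gene with these groups cannot go below p = 0.333, and p-values here measure only the spread between these libraries.

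**Figure D2:**
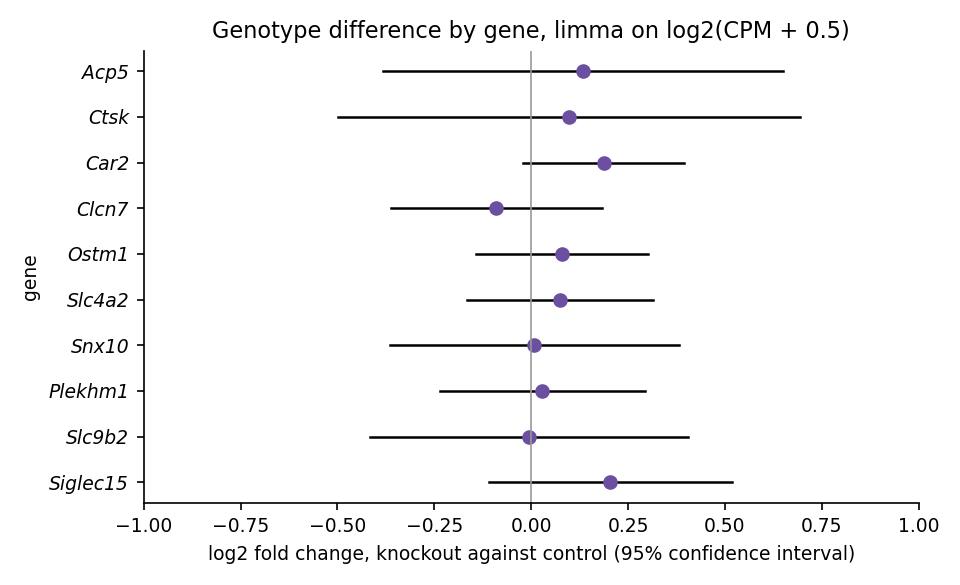
Difference between genotypes for each of the 10 genes as a log2 fold change, knockout against control, from limma on log2(CPM + 0.5), with lines for 95% confidence intervals. All 10 intervals include 0, and the estimates run from -0.09 for Clcn7 to 0.20 for Siglec15.

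Among the enzymes, Ctsk (chr3:95499256-95509362, plus strand), the cysteine protease that cleaves bone collagen (positions are of the GENCODE gene on GRCm38), was at 23059.6 and 23825 CPM in controls 1 and 2 and at 23577 and 26656 CPM in knockouts 1 and 2. Knockout 2 was high, and knockout 1 lay between the controls. The means were 23442 ± 541 and 25116 ± 2177 CPM (SD, n = 2 each), with a fold on the log scale between 0.71 and 1.62 by the 95% confidence interval. Ctsk is also made by fibroblast-like cells, and the summed stromal, fibroblast and osteoblast markers were at 2141 and 2657 CPM in the controls and 1547 and 1386 CPM in the knockouts, with 1 of 16 tested markers, the matrix gene Fbn1, called lower by limma and 7 by DESeq2. That sum was lowest in knockout 2, where Ctsk was highest, but between the controls both the sum and Ctsk were higher in control 2. The part of such cells in the Ctsk level was not tested.

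Acp5 (chr9:22126727-22135711, minus strand), the tartrate-resistant acid phosphatase used as the classic osteoclast stain, was at 9855 and 9296 CPM in the controls and at 8993 and 12255 CPM in the knockouts. The knockout libraries thus lay on either side of the controls, and their SD of 2306 CPM exceeded the difference between the means, 9576 and 10624 CPM. This gave a log2 fold change of 0.13 (SE 0.22, 95% confidence interval -0.38 to 0.65), which was -0.09 without knockout 2. The exons of Acp5 share 137 bases, 6.75% of their length, with 6530413G14Rik on the opposite strand, and reads were counted with a strand setting not given in the sources used here.

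Car2 (chr3:14886273-14900770, plus strand), the cytosolic carbonic anhydrase that supplies protons, was at 192 and 179 CPM in the controls and at 209.7 and 213 CPM in the knockouts. Both knockout libraries were high, and they were closer to each other (SD 2.07 CPM) than the controls were (SD 9.18 CPM). The log2 fold change of 0.19 (SE 0.09, interval -0.02 to 0.39) had the smallest unadjusted p of the group, 0.0705 in limma. Leaving out each library in turn kept it between 0.14 and 0.24. Car2 is also abundant in red cell precursors. Of 12 erythroid markers only 2 passed the filter, and both were higher in both knockout libraries without passing the test. Hbb-bs, a beta-globin gene, was at 1.30 and 1.26 CPM in the controls and 1.91 and 2.72 CPM in the knockouts (limma unadjusted p = 0.0432, adjusted p = 0.987). Tfrc, the transferrin receptor of many cells that take up iron, was at 6136 and 5454 CPM in the controls and 7817 and 7531 CPM in the knockouts (unadjusted p = 0.0466, adjusted p = 0.9997). Of the defining red cell genes, Hba-a1, Alas2 and Klf1 were not among the genes analysed here, and the part of such cells in the Car2 level was not tested. In bulk RNA, fewer cells of a type and less RNA per cell cannot be told apart.

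Among the ion transporters, Clcn7 (chr17:25133391-25162104, plus strand), the chloride-proton exchanger of lysosomes and the ruffled border, was at 963 and 815 CPM in the controls and at 821 and 843 CPM in the knockouts. Control 1 was high, and the 3 other libraries lay close together. Its log2 fold change of -0.09 (SE 0.12, interval -0.36 to 0.18) was the lowest of the group, and it was 0.03 without control 1.

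Ostm1 (chr10:42583822-42702459, plus strand), the beta subunit that stabilises the Clcn7 protein, was at 276 and 271 CPM in the controls and at 274 and 305 CPM in the knockouts. Knockout 2 was high and knockout 1 lay between the controls, for a log2 fold change of 0.08 (SE 0.10). Its exons share 410 bases with an antisense gene, Gm15200, that was not analysed here. Per kb of merged exons Clcn7 exceeded its partner Ostm1 4.75-fold and 4.10-fold in the controls and 4.09-fold and 3.77-fold in the knockouts. Both knockout ratios lay below both control ratios, with means of 4.43 ± 0.46 and 3.93 ± 0.23 (SD, n = 2 each), but knockout 1 and control 2 were nearly equal. This difference was not tested, and in CPM both knockouts lay below both controls in 15.4% of all tested genes. With the transcript lengths the excess was smaller, at 1.62-fold and 1.396-fold in the controls and 1.39-fold and 1.28-fold in the knockouts.

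Slc4a2 (chr5:24423837-24440950, plus strand), the anion exchanger that removes bicarbonate, varied least of the 10. It was at 1054 and 1024 CPM in the controls and at 1089.6 and 1098 CPM in the knockouts. Both knockout libraries were above both controls, by a small amount, with a log2 fold change of 0.07 (SE 0.10, interval -0.17 to 0.31). Of its exon bases 13.7% lie opposite exons of Fastk, so some reads counted for either gene could belong to the other.

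Slc9b2 (chr3:135307700-135345387, plus strand), a sodium-proton antiporter of osteoclast endosomes and lysosomes, was at 848 and 686 CPM in the controls and at 643 and 899 CPM in the knockouts. The knockout libraries were the lowest and the highest of the 4. The means were 767 ± 115 and 771 ± 181 CPM. The log2 fold change, a difference of means of log2(CPM + 0.5), was -0.01 (SE 0.18), of opposite sign to the difference in mean CPM, and leaving out 1 library gave values between -0.25 and 0.24.

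Of the vesicle proteins, Snx10 (chr6:51523901-51590679, plus strand), a sorting nexin of endosomes, was at 1609 and 1427 CPM in the controls and at 1321 and 1759 CPM in the knockouts. As for Slc9b2, knockout 1 was the lowest library and knockout 2 the highest, and the log2 fold change was 0.01 (SE 0.16), between -0.20 and 0.21 with 1 library left out. Plekhm1 (chr11:103364275-103412687, minus strand), an adaptor that joins the GTPase Rab7 to the lysosomal fusion machinery, was at 505 and 448 CPM in the controls and at 452 and 520.5 CPM in the knockouts. Its log2 fold change was 0.03 (SE 0.11), and it was -0.06 without control 2 and -0.07 without knockout 2. The groups overlapped in both genes.

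Siglec15, a sialic acid-binding receptor that signals through the adaptor DAP12, was at 171 and 145 CPM in the controls and at 162 and 203 CPM in the knockouts. Knockout 2 was high and knockout 1 lay between the controls. The log2 fold change of 0.20 (SE 0.13, interval -0.11 to 0.52) was the largest of the group and fell short of the test. Without knockout 1 it was 0.37, with a limma adjusted p of 0.445, the lowest adjusted p of any member under any alternative, and without knockout 2 it was 0.04.

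**Figure D3:**
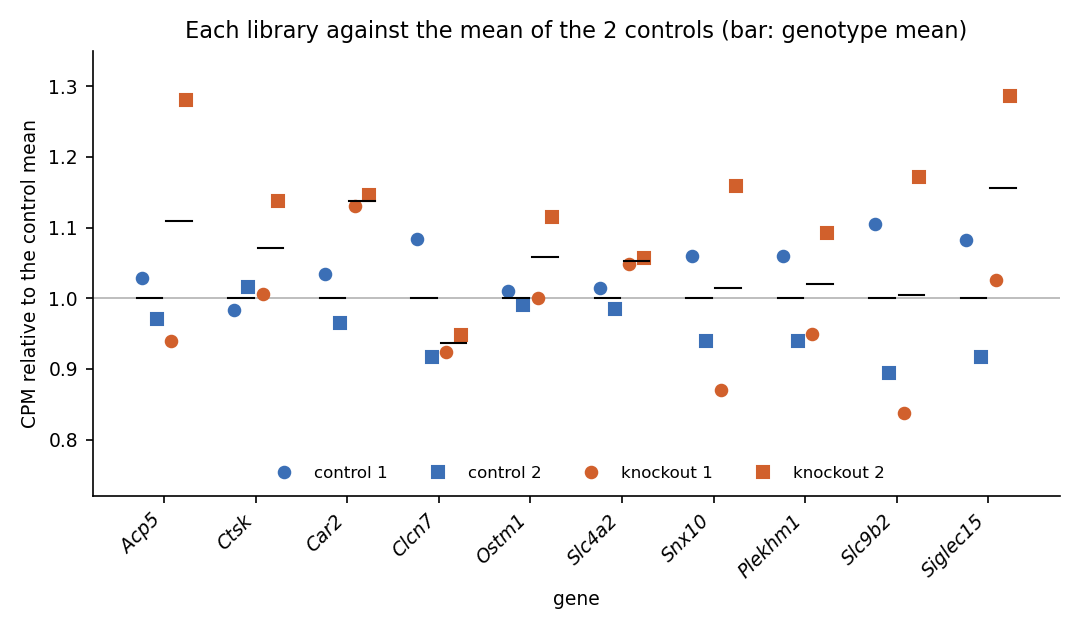
CPM of each library divided by the mean of the 2 controls, for each of the 10 genes, with blue points for controls, orange points for knockouts and bars at genotype means. Knockout 2 (orange squares) is the highest library for 9 of the 10 genes, and knockout 1 (orange circles) lies at or below the higher control for 8.

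Libraries of 1 genotype also differed from each other. All 10 members were higher in knockout 2 than in knockout 1, and 9, all but Ctsk, were higher in control 1 than in control 2, beside 50.1% and 49.6% of all tested genes. Knockout 2 was the highest of the 4 libraries for 9 members, all but Clcn7, and for 26.8% of tested genes. The median log2 ratio of knockout 2 to knockout 1 was 0.19 over the members and 0.0007 over all tested genes, and that of control 1 to control 2 was 0.14 and -0.002.

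The members did not share this pattern equally. Slc9b2 (1.397-fold higher in knockout 2 than in knockout 1), Acp5 (1.36-fold), Snx10 (1.33-fold) and Siglec15 (1.25-fold) differed most between the knockout libraries. A ratio at least as high was found in 4.2%, 5.19%, 6.09% and 9.93% of all tested genes, respectively. Most tested genes had a lower mean level than any member. Slc4a2 (1.01-fold), Car2 (1.01-fold) and Clcn7 (1.03-fold) were nearly equal in the knockout libraries. The whole range over 4 libraries was 6.94% of the mean for Slc4a2 and 34.2% for Siglec15, with a median of 17.1% over the members and 14.1% over the 1167 tested genes at or above the lowest member's mean of 170.4 CPM.

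Within each genotype, the 9 osteoclast markers outside the group differed in the same direction between libraries as most members did. All 9 were higher in knockout 2 than in knockout 1 and in control 1 than in control 2, and 8 were highest in knockout 2. Nfatc1, the transcription factor that switches on many of these genes, was at 926 and 773 CPM in the controls and 736 and 1036 CPM in the knockouts. In 2 of the 9, Dcstamp and Tnfrsf11a, both knockouts lay above both controls, as in 16.5% of all tested genes. Dcstamp was at 666 and 649 CPM in the controls and 838 and 877 CPM in the knockouts. Its log2 fold change was 0.38 (limma adjusted p = 0.475). Of 9 macrophage markers, 9 were higher in control 1 than in control 2 but only 3 were higher in knockout 2 than in knockout 1. The mitochondrial share was also higher in control 1 than in control 2 and in knockout 2 than in knockout 1, and its part in these differences was not tested. Comparisons within a genotype are between single libraries, and no test was made of them.

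**Figure D4:**
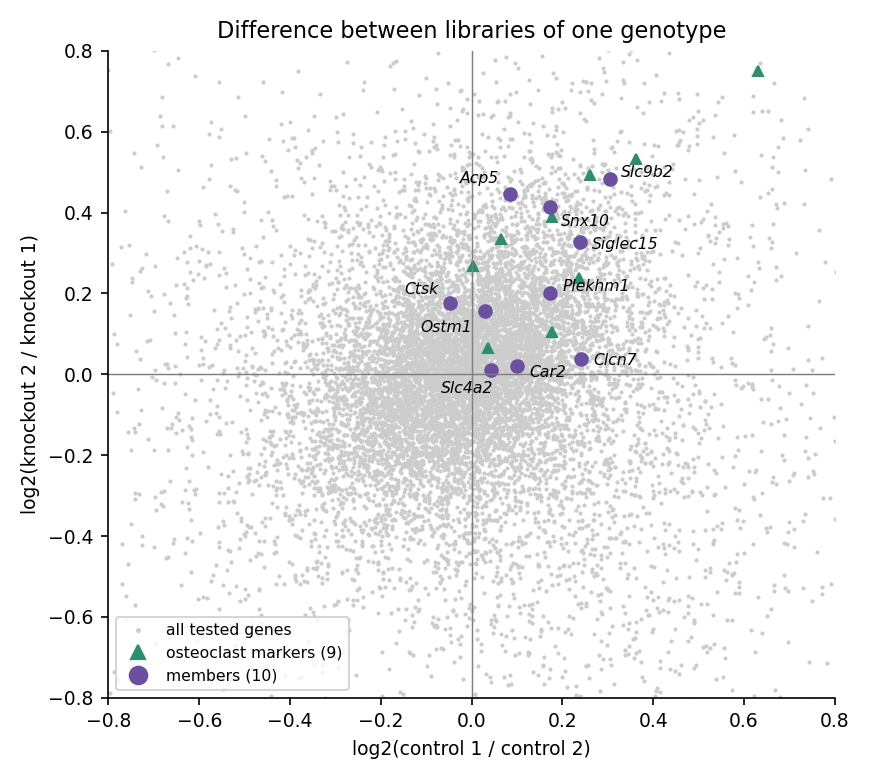
Log2 ratio of CPM + 0.5 of knockout 2 to knockout 1 (vertical axis) against that of control 1 to control 2 (horizontal axis) for the 10 members, 9 osteoclast markers and all tested genes, with axes ending at 0.8 and 497 genes beyond them not drawn. All members lie above 0 on the vertical axis, and all but Ctsk lie above 0 on the horizontal axis.

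None of the relatives and partners of the members passed the test. Of 178 further genes in 11 lists, 140 were tested, and limma, edgeR and DESeq2 each called 0 of them. At an unadjusted p under 0.05 limma gave 3 higher and 2 lower, with a median log2 fold change of 0.03 over the 140. Without knockout 1, which leaves 1 knockout library that is assumed to vary as the 2 controls do, limma called 0.798% of all tested genes and 3 of these: Snx29 (log2 fold change 0.75, adjusted p = 0.0272), Csf1 (-0.67, adjusted p = 0.0446) and Slc4a3 (-1.49, adjusted p = 0.0127).

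Among the enzyme families, 0 of 4 acid phosphatases, 0 of 11 cathepsins and 0 of 6 carbonic anhydrases passed. Ctsd was at 2419 ± 144 CPM in the control and 2911 ± 59.7 CPM in the knockout libraries (SD, n = 2 each, here and for the genes that follow), and Ctsb, a lysosomal cysteine protease and the cathepsin with the most reads after Ctsk, was at 3456 ± 4.997 and 3681 ± 26.3 CPM. Ctsl, another cysteine protease, was at 261 ± 33.9 and 216 ± 43.0 CPM. The phosphatase Acp2 of lysosomes was at 76.2 ± 6.54 and 75.9 ± 12.7 CPM, Acp6 at 16.3 ± 2.15 and 13.6 ± 3.00 CPM and Acp1 at 12.2 ± 7.98 and 19.6 ± 16.8 CPM. Of the carbonic anhydrases, the cytosolic Car13 was at 19.1 ± 0.13 and 20.4 ± 4.10 CPM, the mitochondrial Car5b at 2.71 ± 0.67 and 3.43 ± 0.85 CPM, and Car8, which lacks enzyme activity, at 2.33 ± 0.36 and 1.23 ± 0.72 CPM.

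Among the transporters and receptors, 0 of 4 CLC genes, 0 of 3 SLC4 genes, 0 of 7 sodium-proton exchangers and 0 of 5 Siglecs passed. The endosomal exchangers Clcn3 (62.4 ± 3.79 and 70.9 ± 1.74 CPM in controls and knockouts), Clcn4 (97.2 ± 8.91 and 106 ± 8.86 CPM) and Clcn5 (51.5 ± 0.42 and 59.3 ± 1.63 CPM) had log2 fold changes of 0.18, 0.13 and 0.20. The anion exchanger Slc4a3 was at 13.3 ± 4.90 and 6.48 ± 3.16 CPM (adjusted p = 0.882 with limma), and the bicarbonate cotransporter Slc4a7 at 103 ± 22.8 and 96.8 ± 19.7 CPM. The organellar sodium-proton exchanger Slc9a7 was at 13.9 ± 0.50 and 17.6 ± 2.56 CPM. The Siglecs Cd22, Siglec1 and Mag were each at a mean under 5 CPM in both genotypes.

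Among the vesicle and adhesion genes, 0 of 27 sorting nexins, 0 of 38 genes of lysosome transport and 0 of 25 genes of the sealing zone passed. The sorting nexin Snx29 was at 46.0 ± 6.61 CPM in control and 69.4 ± 11.3 CPM in knockout libraries (log2 fold change 0.58, limma adjusted p = 0.458), Snx25 at 13.5 ± 1.001 and 17.5 ± 0.72 CPM and Snx18 at 194 ± 15.0 and 199.6 ± 15.8 CPM. Rab38, a GTPase of lysosome-related organelles, was at 104 ± 1.11 and 126 ± 13.9 CPM (limma adjusted p = 0.983). The lipid kinase Pikfyve was at 69.3 ± 7.19 and 79.95 ± 2.94 CPM, and Arl8b, a GTPase that moves lysosomes outward, was at 584 ± 2.76 and 586 ± 78.1 CPM. Of the sealing zone genes, the kinase Ptk2b was at 172 ± 13.6 and 188 ± 3.904 CPM, zyxin (Zyx) at 37.6 ± 4.72 and 33.4 ± 0.28 CPM and the actin-bundling protein Lcp1 at 2519 ± 73.7 and 2716 ± 77.3 CPM.

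Of 13 tested other genes of osteopetrosis in humans or mice, 0 passed. Tcirg1, a subunit of the osteoclast proton pump, was at 1523 ± 15.1 and 1573 ± 136 CPM, and Tnfrsf11a, the RANKL receptor, was at 349.8 ± 30.5 and 393 ± 20.0 CPM. Csf1, which encodes M-CSF, was at 45.8 ± 0.76 CPM in control and 30.5 ± 2.52 CPM in knockout libraries (log2 fold change -0.58, limma adjusted p = 0.196).

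**Figure D5:**
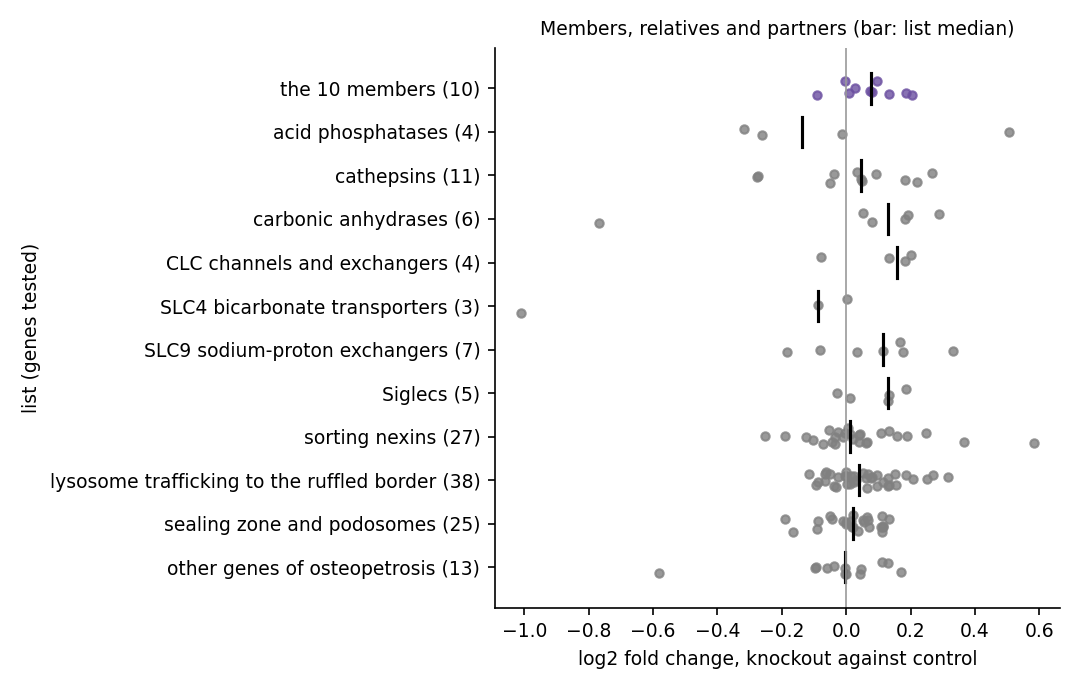
Log2 fold change, knockout against control, of the 10 members (purple) and of the tested genes of 11 lists of relatives and partners (grey), with bars at list medians and small vertical offsets to separate points. The members lie between -0.09 and 0.20, and the lowest value among the relatives is that of Slc4a3 at -1.01.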

How the data were processed

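The authors deposited 1 table with a normalised signal per gene and library for 2 control and 2 knockout libraries. The submitters' processing notes name STAR, featureCounts, Subread, edgeR and the build mm10 (GRCm38) without versions, with annotation release, strand setting and low-gene filter not given in the sources used here. Every value was a whole multiple of the smallest positive value of its library (100% of values within 0.001 reads), which gave back whole reads, and TMM-scaled CPM recomputed from them in edgeR differed from the deposited signal by at most 4.91e-11.

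A gene had to reach 1 CPM in 2 libraries or more, and the 11781 that did were tested across the whole table with limma and an intensity trend on log2(CPM + 0.5), genotype as the sole term, 2-sided, with Benjamini-Hochberg adjustment over all tested genes. Such fold changes understate those of low genes. The alternatives changed the pseudocount, filter, scaling or variance model, added a replicate block, left out each library, or used edgeR or DESeq2 on the recovered reads. Members and lists were chosen with earlier results of these data known. Of each list, genes past the test were to be named, otherwise the 2 with the smallest p and the 1 with the highest mean CPM, and others were named after their values were seen. Some genes that this rule names are not reported here. Positions and exon lengths came from GENCODE M21 (GRCm38), which holds 12699 of the 12799 symbols. The steps were tested on reads drawn with known changes. Any 2 libraries differed beyond sampling noise. The software was limma 3.58.1, DESeq2 1.42.0 and edgeR 4.0.16 under R 4.3.3, with pandas 2.3.3 and matplotlib 3.10.9 under Python 3.11.15.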

Additional observations from a re-analysis of the deposited data

How the results depend on the processing

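Under 16 alternatives, 0 members passed the test in any, and 148 of 160 member values kept their direction. The other 12 changed sign. Snx10 was at -0.016 with scaling by the library total and -0.0026 with upper-quartile scaling, which by construction moved the median of all genes from 0.0016 to -0.021 and -0.0085, and Slc9b2 was at 0.0041 with edgeR and 0.0037 with DESeq2. With 1 library left out, log2 fold changes ran from -0.090 to 0.36 for Acp5 and -0.21 to 0.030 for Clcn7. They ran from -0.20 to 0.21 for Snx10, -0.072 to 0.13 for Plekhm1 and -0.25 to 0.24 for Slc9b2. With 1 library left out, the groups did not overlap in 63.5% to 68% of all tested genes. The number of members whose groups did not overlap was then 4 to 9, and that of other pathway genes called 0 to 3. Over all genes the test called 2 higher and 2 lower genes without a trend, 10 and 56 with DESeq2, and 2 to 18 and 4 to 75 with 1 library left out, against 5 and 14. With the replicate number as a block (replicate block), 18 genes were higher and 71 lower, and 0 members passed. The log2 difference of replicate 1 from 2 in controls and that in knockouts were nearly uncorrelated (r = -0.0016). The 11781 genes compared are not independent replicates. Whether same-numbered libraries share more than a number was not tested. Leaving out 1 library leaves 1 group with a single library, assumed to vary like the other group. The cause of the other changes was not tested.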
